A study of Arabidopsis thaliana with 19 samples.

Results

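The plastid genome of Arabidopsis thaliana encodes, beside its photosynthesis genes, the core of its own gene expression machinery. Transcript levels of 26 plastid genes, most of them part of this machinery, were followed here across an autopolyploid series. They were chosen as the probe sets that the platform annotation assigns to 1 gene on the plastid genome, with a symbol not starting with psa, psb, pet, atp, ndh or rbcL. Of 13356 genes with a single-gene probe set, 69 lay on the plastid genome, of which 26 met this rule and the other 43 were photosynthesis genes. The 26 comprised 15 ribosomal protein genes (8 of the small and 7 of the large subunit), 4 RNA polymerase genes and 7 other genes, each measured by 1 probe set. All 26 are called the genetic system below for short. Most of the 7 other genes have roles outside gene expression, such as accD in fatty acid synthesis and ycf3 and ycf4 in photosystem I assembly. A further 7 plastid probe sets, of the 6 genes rps12, rpl2, rpl23, ycf2, rps7 and ycf1, are annotated to 2 gene copies each and were left out by the rule.

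The data were 19 Affymetrix ATH1 arrays, 1 for each single seedling of 2 weeks, raised in a growth chamber on medium after Murashige and Skoog. The groups were 5 tetraploids (4x, 4 genome copies), 5 triploids with paternal excess (3x(p), 3 copies), 5 triploids with maternal excess (3x(m), 3 copies) and 4 diploids (2x, 2 copies). No treatment is named for any group, and the natural strain and the origin of the polyploid lines are not given in the sources used here. Values are log2 levels on a scale shared by all arrays, so that they show a transcript's level relative to the rest of the seedling's labelled RNA. Fewer plastids per cell, fewer green cells and less RNA per plastid cannot be told apart in such whole-seedling samples.

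Plastids descend from cyanobacteria and keep a bacterial type of gene expression system. Their genes are transcribed by a plastid-encoded RNA polymerase, whose core subunits are the products of rpoA, rpoB, rpoC1 and rpoC2, and by a phage-type polymerase encoded in the nucleus. Several genes of the genetic system depend more on the phage-type enzyme, and photosynthesis genes more on the plastid-encoded one. The plastid ribosome is assembled from plastid-encoded and nuclear-encoded proteins, and in Arabidopsis the plastid genome is inherited almost entirely through the mother.

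A pair of seedlings stood apart for these genes. Diploid 2x 1 had the lowest level of all 19 seedlings for 24 of the 26 genes, and diploid 2x 4 for the other 2 (accD and ccsA). Maternal-excess triploid 3x(m) 4 had the highest level for 17 of the 26 genes. The median deviation of its chromosome 4 genes lay 0.125 log2 units above that of all its nuclear genes, against -0.004 to 0.002 in the other seedlings. Seedling 2x 1 also had the lowest signal of the control probe set for cytoplasmic large rRNA (10.55, against 10.78 to 11.70 in the other seedlings). Its difference between the 3′ and 5′ probe sets of GAPDH, a measure of RNA integrity, was -0.17, within the range of -0.27 to 0.16 over the arrays. The same difference for actin was -0.70 in 2x 1, over a range of -0.74 to -0.38. The median level of all probe sets was highest in 2x 1 (5.89, over a range of 5.80 to 5.89). The leaf marker RCA, Rubisco activase, stood at 13.83 in 2x 1 and between 13.72 and 13.98 on every array. It was the only one of 15 listed leaf markers with a single-gene probe set. Of 9 root markers 3 were measured (EXPA7, EXPA18 and PYK10), with 0 called in the comparisons with 2x (0.0352% to 1.15% of all probe sets). Their median differences from 2x were 0.85 in 4x, 0.40 in 3x(p) and 0.04 in 3x(m). In 4x the single differences were 1.11 for EXPA18, 0.85 for EXPA7 and 0.22 for PYK10. The summed level of these markers, added before taking log2, was mostly that of PYK10 (mean 12.58 in 4x, against 7.15 for EXPA7 and 7.88 for EXPA18). This sum ranged over 12.52 to 12.86 in 4x, 12.41 to 12.56 in 3x(p), 12.27 to 12.63 in 3x(m) and 12.36 to 12.54 in 2x. Of 8 seed markers 1 was measured, LEA76 at a dim 2.74 to 4.26, and of 4 pollen markers 0. The part of these array and tissue properties in the plastid gene levels was not tested. The medians over the genes of each comparison, and the differences named with their SE that moved by over 1.5 times, are also given without 2x 1, 3x(m) 4 or both.

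**Figure D1:**
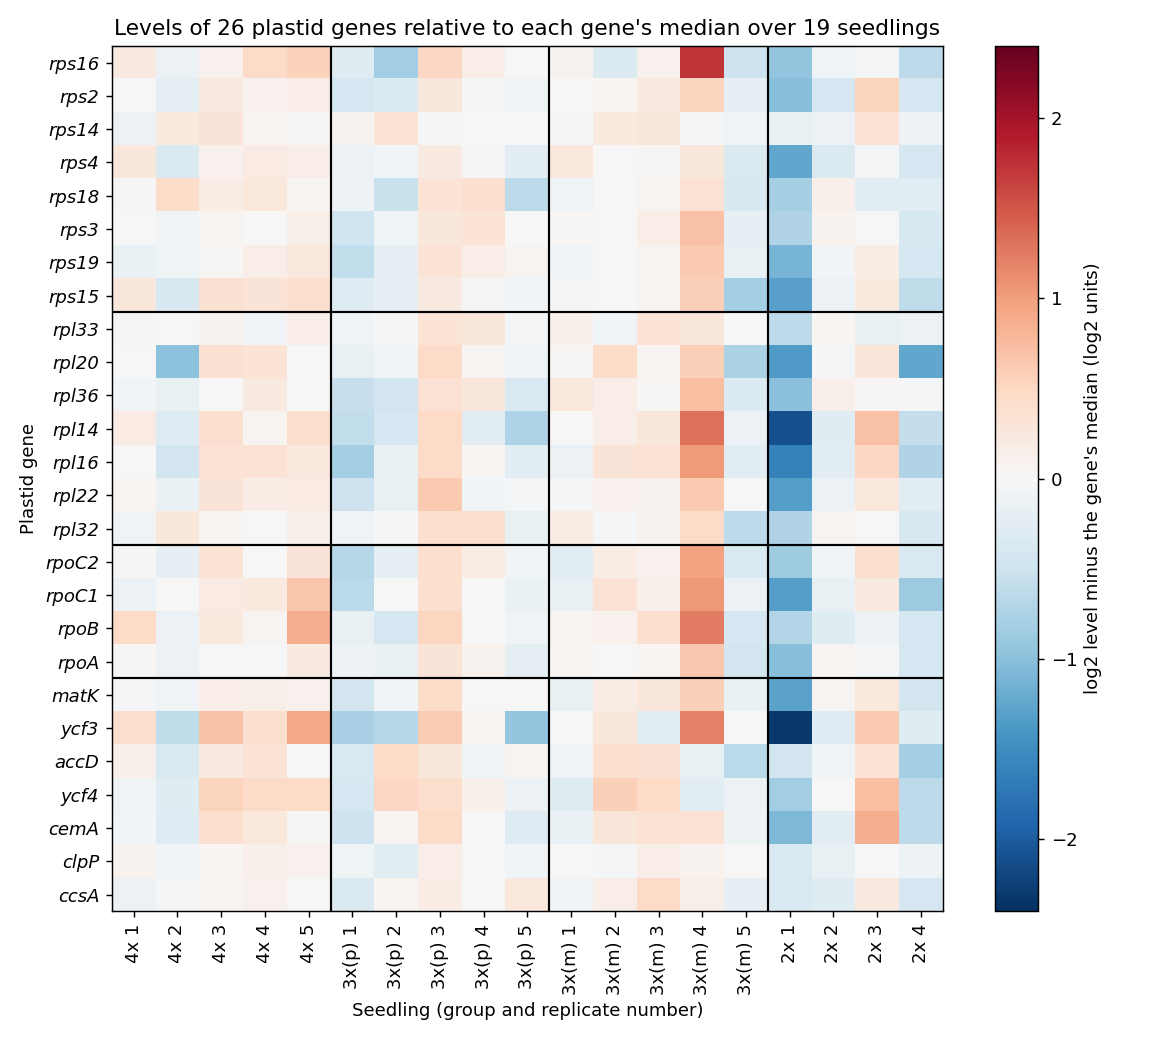
Log2 level of each of the 26 plastid genes (rows, grouped as small subunit, large subunit, polymerase and other genes) minus that gene's median over 19 seedlings, for each seedling (columns, grouped as 4x, 3x(p), 3x(m) and 2x). Seedling 2x 1 is the lowest of all for 24 genes and 3x(m) 4 the highest for 17.

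All 26 genes had their lowest group mean in the diploids. The highest group mean lay in 3x(m) for 15 genes, in 4x for 9 genes and in 3x(p) for 2 (accD and rpl32). The mean of the 3 polyploid groups exceeded the diploid mean by a median of 0.36 log2 units over the 26 genes (range 0.11 to 0.66), whereas 49.1% of all 22746 probe sets had a positive difference in this comparison. No single gene passed: limma called 0 of 26 at an adjusted p under 0.05, where it called 0.774% of all probe sets, and 9 of 26 had an unadjusted p under 0.05, against 11.3% of all probe sets. In 0 of 26 did every polyploid lie above, or every polyploid below, every diploid, which 0.286% and 0.163% of all probe sets did. The 26 genes lie on 1 genome and varied together within groups, so their common direction is not 26 separate observations. Without 2x 1 the median was 0.16, with 25 of 26 positive and 0 at an unadjusted p under 0.05. Without 2x 3, the diploid with the highest levels, it was 0.61, with 22 at an unadjusted p under 0.05 and 0 called. In that fit 80 of all 22746 probe sets were called. Without 1 of the other 17 seedlings, 4 (without 2x 4) to 14 (without 2x 2) had an unadjusted p under 0.05. Without both 2x 1 and 3x(m) 4 the median was 0.12, with 24 of 26 positive. Leaving out the lowest or the highest diploid in itself shifts the diploid mean of most of these genes. Counts at an unadjusted p with a seedling left out, here and below, therefore show only the dependence on single seedlings. No share of all probe sets is given beside them.

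Among the genes of the small ribosomal subunit, the 8 differences from the diploids had a median of 0.43 in 4x, 0.28 in 3x(p) and 0.43 in 3x(m). Without 2x 1 these medians were 0.23, 0.08 and 0.21. The gene rps4 encodes a protein that binds the ribosomal RNA early in assembly of the small subunit in Escherichia coli. Its log2 level was 12.30, 11.69, 12.13, 12.23 and 12.20 in the 4x seedlings and 11.89, 11.96, 12.25, 12.06 and 11.76 in the 3x(p) seedlings. It was 12.29, 12.03, 12.05, 12.32 and 11.70 in the 3x(m) seedlings, against 10.79, 11.69, 12.01 and 11.63 in the 2x seedlings. All but 1 of the tetraploids lay above every diploid, while 2x 3 lay inside the range of each polyploid group. The polyploid mean was 0.53 ± 0.163 higher than the diploid mean (SE, 1.44-fold), the smallest p of the 26 genes, and did not pass after adjustment (limma, adjusted p = 0.181). Without 2x 1 this difference was 0.28 ± 0.136 (limma, adjusted p = 0.758).

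The other small subunit genes followed the order of seedlings seen for rps4 to varying degrees, and rps18 and rps14 departed from it. For rps16 the 3x(m) seedlings stood at 6.45, 6.05, 6.46, 8.09 and 5.86, against 5.41, 6.26, 6.34 and 5.74 in the 2x seedlings. Here 3x(m) 4 at 8.09 lay above every other array, and the remaining 4 overlapped the diploids. Its 4x seedlings ranged between 6.22 and 6.92 and its 3x(p) seedlings between 5.52 and 6.87. For rps15, whose bacterial counterpart also binds the ribosomal RNA directly, the mean was 6.30 ± 0.32 in 4x, 6.04 ± 0.20 in 3x(p), 6.07 ± 0.50 in 3x(m) and 5.65 ± 0.66 in 2x (SD, n = 5, 5, 5 and 4). For rps18 the mean was 9.83 ± 0.19 in 4x, 9.54 ± 0.47 in 3x(p), 9.64 ± 0.26 in 3x(m) and 9.35 ± 0.38 in 2x. Its highest level of all seedlings was in 4x 2 (10.09), the lowest tetraploid for rps4. The gene rps14 was the exception in level, with a mean of 3.56 below the 4.07 that bounds the dimmest 30% of probe sets. Its highest level of all seedlings was in diploid 2x 3 (3.84). Its differences from the diploids were the smallest or among the smallest (0.13 in 4x, 0.10 in 3x(p) and 0.10 in 3x(m)). The means of rps2, rps3 and rps19, which encode further proteins of this subunit, lay 0.28 to 0.38 above the diploids in 4x.

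The 7 large subunit genes had median differences from the diploids of 0.48 in 4x, 0.34 in 3x(p) and 0.52 in 3x(m), and of 0.18, 0.02 and 0.22 without 2x 1. The protein of rpl14 lies at the contact between the ribosomal subunits in bacteria. Its level was 10.59, 10.09, 10.77, 10.45 and 10.82 in 4x and 9.80, 9.97, 10.88, 10.14 and 9.65 in 3x(p). It was 10.40, 10.54, 10.67, 11.72 and 10.25 in 3x(m), against 8.29, 10.10, 11.10 and 9.83 in 2x. The diploids held both the lowest value (2x 1) and the second highest (2x 3), and the groups overlapped. The 3x(m) mean was 0.88 ± 0.407 higher than the 2x mean (limma, adjusted p = 0.999), which became 0.37 without 2x 1 and 0.12 without both 2x 1 and 3x(m) 4.

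A tighter large subunit gene was rpl33, which tobacco plants need for recovery from cold. Its level was 10.59, 10.64, 10.72, 10.56 and 10.80 in 4x and 10.55, 10.61, 10.97, 10.91 and 10.60 in 3x(p). It was 10.76, 10.57, 10.96, 10.91 and 10.65 in 3x(m), against 10.00, 10.69, 10.47 and 10.50 in 2x. Every polyploid seedling lay above 3 of the 4 diploids, and 2x 2 lay among the polyploids. The difference of 3x(p) from 2x was 0.31 ± 0.126, the smallest p among the 15 ribosomal genes in that comparison (limma, adjusted p = 0.309), and 0.17 without 2x 1. For rpl20, an early assembly protein of the large subunit in bacteria, the level was 6.95, 5.96, 7.32, 7.28 and 6.95 in 4x and 6.77, 6.89, 7.40, 7.02 and 6.85 in 3x(p). It was 6.98, 7.39, 7.01, 7.53 and 6.19 in 3x(m), against 5.60, 6.91, 7.24 and 5.71 in 2x. Diploids 2x 1 and 2x 4 were below all polyploids, while 2x 2 and 2x 3 were inside their range. The genes rpl16, rpl22, rpl32 and rpl36, for other large subunit proteins, averaged 0.22 to 0.62 above the diploids in 4x and 0.27 to 0.78 above them in 3x(m). Limma called 0 of the 4 (0.958% of all probe sets in 4x minus 2x and 0.0352% in 3x(m) minus 2x). The 0.22 in 4x belonged to rpl36, whose difference fell below 0 without 2x 1.

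The 4 polymerase genes had the highest median difference of the 4 classes in 4x (0.53) and in 3x(m) (0.54), and 0.34 in 3x(p). Without 2x 1 these medians were 0.31, 0.36 and 0.16. The rank in 3x(m) depended on 3x(m) 4: without it the polymerase median was 0.35, below the 0.41 of the large subunit genes. Without both 2x 1 and 3x(m) 4 it was 0.19, again the highest of the classes. The gene rpoC1, for the β′ subunit that with the β subunit forms the catalytic centre, had levels of 8.22, 8.37, 8.57, 8.61 and 9.04 in 4x and 7.72, 8.37, 8.76, 8.37 and 8.21 in 3x(p). Its levels were 8.20, 8.72, 8.49, 9.41 and 8.24 in 3x(m), against 7.04, 8.20, 8.58 and 7.49 in 2x. Diploids 2x 1 and 2x 4 lay below every polyploid, and 2x 2 and 2x 3 did not. The polyploid mean was 0.66 ± 0.244 higher (1.58-fold, limma, adjusted p = 0.283), and 0.40 higher without 2x 1. In 4x minus 2x, weighting arrays by their estimated quality gave rpoC1 a difference of 0.83 ± 0.223 and an adjusted p of 0.0409, the only call of any of the 26 genes under the alternatives run. That weighting called 1017 of all 22746 probe sets in this comparison, against 218 without it.

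For rpoB, which encodes the β subunit, the level was 6.95, 6.33, 6.72, 6.54 and 7.35 in 4x and 6.30, 6.09, 7.0, 6.49 and 6.40 in 3x(p). It was 6.55, 6.59, 6.86, 7.71 and 6.08 in 3x(m), against 5.78, 6.19, 6.37 and 6.07 in 2x. Of the 5 tetraploids 4 lay above every diploid, and both triploid groups overlapped the diploids. The 4x minus 2x difference of rpoB was 0.68 ± 0.262 (limma, adjusted p = 0.258) and 0.57 without 2x 1. For rpoA, which encodes the α subunit that assembles the core, means were 11.62 ± 0.13 in 4x, 11.58 ± 0.22 in 3x(p), 11.67 ± 0.38 in 3x(m) and 11.25 ± 0.49 in 2x. For rpoC2, the β″ subunit gene, they were 7.17 ± 0.22 in 4x, 7.0 ± 0.42 in 3x(p), 7.20 ± 0.52 in 3x(m) and 6.86 ± 0.53 in 2x.

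**Figure D2:**
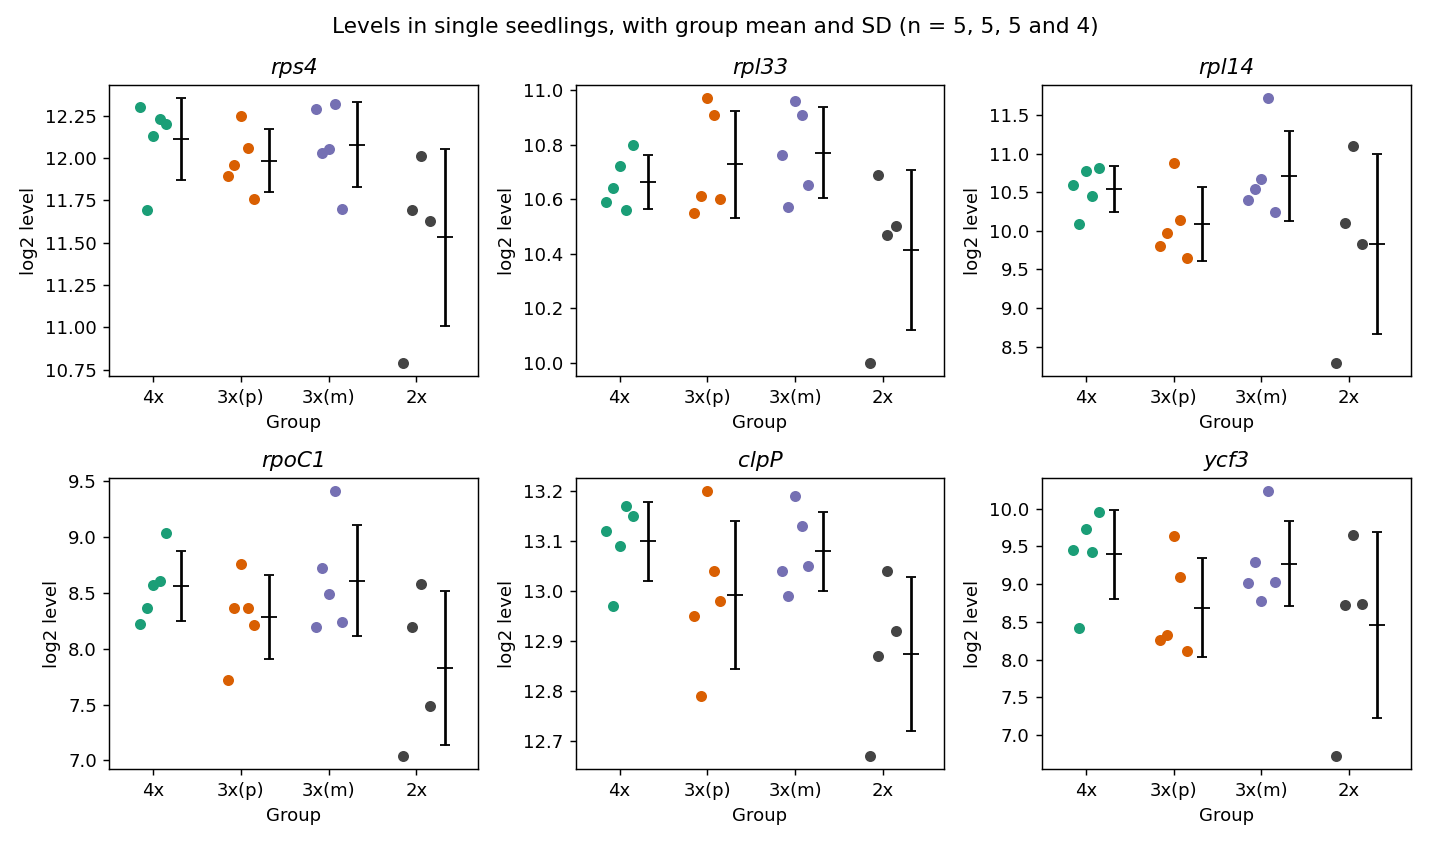
Log2 levels of 6 plastid genes in single seedlings, by group, with the group mean and SD at the right of each column of points (n = 5 for 4x, 3x(p) and 3x(m), n = 4 for 2x). The lowest point of each panel is diploid 2x 1, and in every panel at least 1 diploid lies inside the range of the polyploids.

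The 7 other genes had the lowest class medians, 0.33 in 4x, 0.23 in 3x(p) and 0.31 in 3x(m), which without 2x 1 were 0.16, 0.05 and 0.17. They were not the lowest in every setting. Without 2x 1 the large subunit genes had 0.02 in 3x(p). Without 3x(m) 4 the other genes had 0.34 in 3x(m), against 0.26 for the small subunit genes. The gene clpP encodes a catalytic subunit of the Clp protease, which degrades proteins in the plastid stroma, and varied least of all 26 genes within groups (SD 0.12). Its level was 13.12, 12.97, 13.09, 13.17 and 13.15 in 4x and 12.95, 12.79, 13.20, 13.04 and 12.98 in 3x(p). It was 13.04, 12.99, 13.19, 13.13 and 13.05 in 3x(m), against 12.67, 12.87, 13.04 and 12.92 in 2x. Of the tetraploids 4 exceeded every diploid and 4x 2 did not, with a difference of 0.23 ± 0.086 in 4x minus 2x (limma, adjusted p = 0.255).

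The gene ycf3, whose product helps to assemble photosystem I, varied most within groups (SD 0.77). Its level was 9.45, 8.42, 9.73, 9.42 and 9.96 in 4x and 8.26, 8.33, 9.64, 9.09 and 8.11 in 3x(p). It was 9.02, 9.29, 8.78, 10.23 and 9.03 in 3x(m), against 6.72, 8.72, 9.65 and 8.73 in 2x. Diploid 2x 1 lay far below all other seedlings, and 2x 2 and 2x 4 lay within the range of 4x and of 3x(p) but below every 3x(m) seedling. Diploid 2x 3 lay within the range of 4x and of 3x(m) and just above every 3x(p) seedling. The 4x minus 2x difference of 0.94 ± 0.472 was the highest of the 26 (1.92-fold, limma, adjusted p = 0.423) and was 0.36 without 2x 1. The remaining 5 were matK, the plastid intron maturase, accD, a subunit of acetyl-CoA carboxylase in fatty acid synthesis, and ycf4, a photosystem I assembly factor, with cemA, an envelope membrane protein, and ccsA, a protein of cytochrome c maturation. Their mean levels differed from the diploid mean by 0.20 (ccsA) to 0.40 (matK) in 4x, with 0 of the 5 passing. For accD the mean was 6.67 ± 0.27 in 4x, 6.68 ± 0.32 in 3x(p), 6.57 ± 0.42 in 3x(m) and 6.35 ± 0.48 in 2x. For ccsA it was 11.27 ± 0.10 in 4x, 11.31 ± 0.23 in 3x(p), 11.38 ± 0.26 in 3x(m) and 11.07 ± 0.29 in 2x. In accD and ccsA the lowest diploid was 2x 4 and not 2x 1.

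The comparisons of each polyploid group with the diploids share the 4 diploid arrays, so they are not separate evidence for a direction. In 4x minus 2x, which asks about doubling of the whole genome, 26 of 26 differences were positive (49.2% of all probe sets), with a median of 0.39 and a range of 0.13 (rps14) to 0.94 (ycf3). Limma called 0 of 26 (0.958% of all probe sets), 6 had an unadjusted p under 0.05 (12.9% of all), and in 0 did every tetraploid lie above every diploid (3.31% of all) or below (3.93% of all). The smallest ribosomal p belonged to rps4 (0.58 ± 0.194, limma, adjusted p = 0.182), whose difference was 0.33 without 2x 1. Without 2x 1 the median was 0.17, with 25 positive and 0 at an unadjusted p under 0.05, and without 2x 3 it was 0.64, with 19. Without 1 of the other seedlings 3 (without 2x 4 or 4x 5) to 10 (without 2x 2) had such a p.

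In 3x(p) minus 2x, which adds 1 paternal genome, all 26 differences were again positive (49.1% of all probe sets), with a median of 0.30 and a range of 0.08 (rpl36) to 0.62 (rpl20). Limma called 0 of 26 (1.15% of all), 2 had an unadjusted p under 0.05 (12.2% of all), and 0 had every triploid above every diploid (2.38% of all) or below (2.48% of all). The lowest difference, of rpl36, was 0.08 ± 0.238 (adjusted p = 0.944) and -0.18 without 2x 1, and the highest, of rpl20, was 0.62 ± 0.34 (adjusted p = 0.494) and 0.37 without 2x 1. Smallest in p among the polymerase genes was rpoA (0.33 ± 0.202, adjusted p = 0.549, and 0.11 without 2x 1) and among the other genes ccsA (0.23 ± 0.145, adjusted p = 0.558). Without 2x 1 the median was 0.06, with 20 of 26 positive, and without 2x 3 it was 0.48, with 13 at an unadjusted p under 0.05. Without 3x(p) 3, the highest of its group for 20 genes, it was 0.20.

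In 3x(m) minus 2x, which adds 1 maternal genome, 26 of 26 differences were positive (48.4% of all probe sets), with a median of 0.42 and a range of 0.10 (rps14) to 0.88 (rpl14). Limma called 0 of 26 (0.0352% of all), 10 had an unadjusted p under 0.05 (4.33% of all), and 0 had every triploid above every diploid (0.725% of all) or below (0.642% of all). The smallest p of each class belonged to rps4 (0.55 ± 0.194), rpoC1 (0.78 ± 0.29) and clpP (0.20 ± 0.086), each with an adjusted p of 0.999. Without 2x 1 these differences were 0.30, 0.52 and 0.14, and without both 2x 1 and 3x(m) 4 they were 0.24, 0.32 and 0.12. The median was 0.20 without 2x 1, 0.31 without 3x(m) 4 and 0.10 without both, with 26, 26 and 22 positive. The number at an unadjusted p under 0.05 was 0 without 2x 1, 3 without 3x(m) 4, 18 without 2x 3 and 19 without 3x(m) 5, and 4 to 12 without 1 of the other seedlings.

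**Figure D3:**
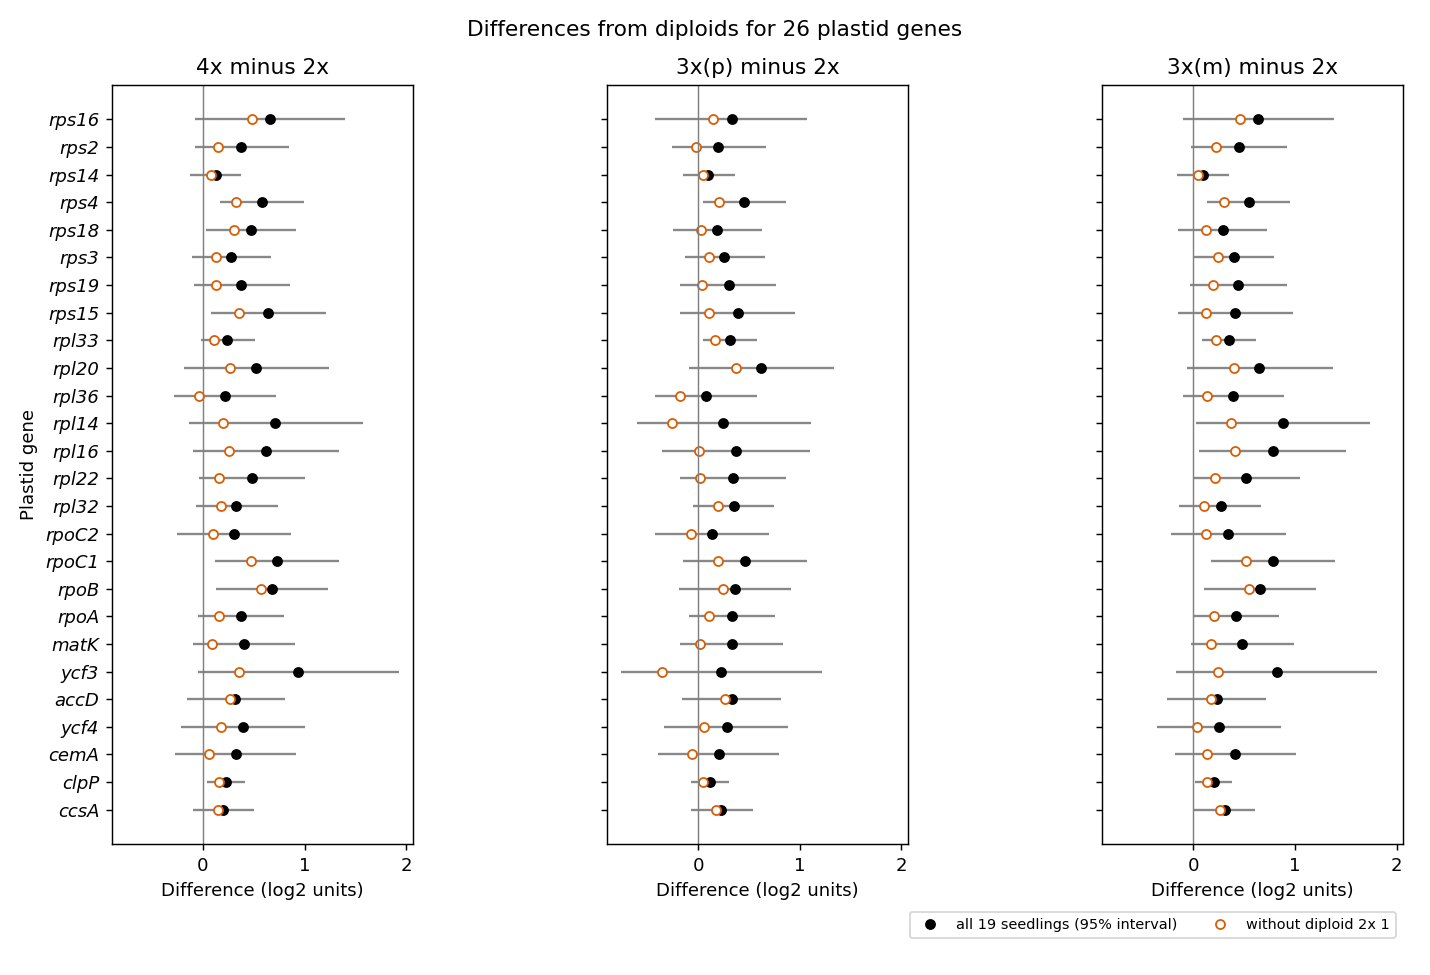
Difference of each polyploid group from the diploids in log2 units (x axis) for 26 plastid genes (y axis). Filled points and lines are the estimates from all 19 seedlings with 95% intervals, and open points the estimates without 2x 1, which lie to the left of the filled ones.

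Among the polyploid groups most genes were lower in 3x(p) than in 3x(m) or 4x, and 4x and 3x(m) had no common direction between them. The first 2 of these comparisons share the 3x(p) arrays. In 3x(p) minus 3x(m), where the copy number is equal and the parent of the extra genome differs, 4 of 26 differences were positive (49.4% of all probe sets), with a median of -0.14. Limma called 0 (0.0044% of all), and 0 had an unadjusted p under 0.05 (6.09% of all). The lowest difference was that of rpl14, -0.63 ± 0.384 (adjusted p = 0.834), which was -0.38 without 3x(m) 4. Smallest in p were, beside rpl14, ycf3 among the other genes (-0.58 ± 0.445, adjusted p = 0.866, and -0.34 without 3x(m) 4) and rpoB among the polymerase genes (-0.30 ± 0.247, adjusted p = 0.878, and -0.06 without 3x(m) 4), and accD had the highest difference (0.10 ± 0.219, adjusted p = 0.961). Without 3x(m) 4 the median was -0.04 with 8 of 26 positive, without 3x(m) 5 it was -0.22 with 0 positive, and without 3x(p) 1 it was -0.07 with 8 positive.

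In 4x minus 3x(p) 21 of 26 differences were positive (49.5% of all probe sets), with a median of 0.12, and ranged between -0.10 (rpl20) and 0.71 ± 0.445 (ycf3). Limma called 0 (0.022% of all), and 0 had an unadjusted p under 0.05 (4.86% of all). The median was 0.02 without 3x(p) 1 and 0.22 without 3x(p) 3. Smallest in p were ycf3 among the other genes, rps18 among the ribosomal genes (0.28 ± 0.199) and rpoB among the polymerase genes (0.32 ± 0.247), each with a limma adjusted p of 1.0. In 4x minus 3x(m) 11 of 26 were positive (48.7% of all), with a median of -0.04 and a range of -0.17 (rpl36) to 0.23 (rps15). Limma called 0 (0.0747% of all), and 0 had an unadjusted p under 0.05 (8.49% of all). Smallest in p were rps18 (0.19 ± 0.199, adjusted p = 0.886), rpoA (-0.05 ± 0.19, adjusted p = 0.982) and ccsA (-0.11 ± 0.136, adjusted p = 0.913). Leaving out 1 seedling moved the differences of rpl36 between -0.30 and -0.03, of rps15 between 0.04 and 0.39, of rps18 between 0.09 and 0.27, of rpoA between -0.17 and 0.10 (above 0 without 3x(m) 4), and of ccsA between -0.18 and -0.01. The sign of the median turned without 3x(m) 4, to 0.07 with 20 of 26 positive, and without 4x 2, to 0.01. In each of these 3 comparisons 0 genes had groups that did not overlap, against shares of all probe sets with every seedling above, or every seedling below, of 0.356% and 0.387% in 3x(p) minus 3x(m), 0.457% and 0.444% in 4x minus 3x(p), and 0.822% and 0.769% in 4x minus 3x(m).

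Nuclear genes whose products work with the plastid-encoded ones were measured in part: 10 of 38 listed plastid ribosomal proteins, 5 of 14 Clp protease subunits, 2 of 7 plastid translation factors and 1 of 2 phage-type polymerases, and 0 of the sigma factors, polymerase-associated proteins, plastid RNA processing factors and nuclear acetyl-CoA carboxylase subunits. Of these 18 genes limma called 0 in any of the 7 comparisons, in which it called 0.0044% to 1.15% of all probe sets. The 10 ribosomal protein genes had median differences of 0.01 in 4x minus 2x, 0.09 in 3x(p) minus 2x and 0.09 in 3x(m) minus 2x, with 6, 9 and 9 positive. PSRP1 (AT5G24490), a ribosome-associated stress protein, had the highest of these, with means of 10.53 ± 0.15 in 4x, 10.74 ± 0.29 in 3x(p), 10.43 ± 0.32 in 3x(m) and 10.07 ± 0.57 in 2x (SD, n = 5, 5, 5 and 4). Its differences from the diploids were 0.46 ± 0.215 in 4x (adjusted p = 0.375), 0.67 ± 0.215 in 3x(p) (adjusted p = 0.171) and 0.36 ± 0.215 in 3x(m) (adjusted p = 0.999), with a level of 9.29 in 2x 1. Without that seedling they were 0.20 in 4x, 0.41 in 3x(p) and 0.10 in 3x(m).

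Among the nuclear partners of clpP, CLPR3, a Clp core subunit, stood at -0.18 ± 0.08 in 4x minus 2x (adjusted p = 0.335) and -0.08 in both triploid comparisons. The smallest p belonged to CLPP4 in 3x(p) minus 2x (0.15, limma, adjusted p = 0.596), whose level in 2x 1 was the lowest of the diploids (10.42). In 3x(m) minus 2x it belonged to CLPS1 (-0.20, limma, adjusted p = 0.999). IF2, the plastid translation initiation factor that brings the initiator tRNA to the ribosome, stood at -0.30 ± 0.136 in 4x minus 2x (adjusted p = 0.365). It stood at -0.14 in 3x(p) minus 2x and -0.02 in 3x(m) minus 2x. The other measured translation factor, IF3, differed by 0.08 in 4x, 0.17 in 3x(p) and 0.16 in 3x(m) relative to 2x. Its level in 2x 1 was the lowest of the diploids (7.91). The phage-type polymerase gene RPOTmp, whose product serves plastids and mitochondria, differed by -0.09 ± 0.135 in 4x, -0.08 ± 0.135 in 3x(p) and -0.14 ± 0.135 in 3x(m) relative to 2x. Without 2x 1 these were -0.03, -0.01 and -0.08.

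Members of the genetic system moved together from seedling to seedling. With group means removed, the median correlation over 325 pairs of the 26 genes was 0.71 across 19 seedlings, and 0.84 over the 6 pairs of polymerase genes. These values share arrays, labelling and normalization and are given as a description. The correlation was 0.66 without 2x 1 and 0.62 without both 2x 1 and 3x(m) 4. The genes most like the rest were rpl16 (median correlation with the other members 0.85) and rpoA (0.84), and the least alike were the dim rps14 (0.19) and accD (0.42). With the 43 plastid photosynthesis genes the median correlation was 0.56 (0.51 without both seedlings), and with 18 mitochondrion-encoded probe sets it was 0.03 (0.06 without both). With the 10 nuclear plastid ribosomal protein genes it was 0.47, which dropped to 0.12 without both seedlings.

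The spread within groups was also wider than for most transcripts. The median SD of the 26 genes was 0.39 (0.12 in clpP to 0.77 in ycf3), against 0.30 for the plastid photosynthesis genes and 0.18 over all probe sets, of which 8.94% exceeded 0.39. Without both seedlings these medians were 0.30, 0.27 and 0.17.

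Summarised per seedling as the median deviation from each gene's own median, the 26 genes averaged 0.08 ± 0.15 in 4x, -0.05 ± 0.28 in 3x(p), 0.13 ± 0.29 in 3x(m) and -0.33 ± 0.52 in 2x (SD, n = 5, 5, 5 and 4). The diploid seedlings stood at -1.01, -0.13, 0.23 and -0.42, so that they spanned more than any polyploid group. The photosynthesis genes of the same genome averaged 0.04 ± 0.08 in 4x, -0.02 ± 0.14 in 3x(p), 0.03 ± 0.17 in 3x(m) and -0.20 ± 0.38 in 2x. Their median differences from the diploids were 0.26 in 4x, 0.18 in 3x(p) and 0.21 in 3x(m), with 42, 40 and 40 of 43 positive. The mitochondrion-encoded probe sets had 0.06, 0.06 and 0.09, with 12, 11 and 11 of 18 positive. Without 2x 1 the medians of the genetic system and photosynthesis genes were 0.17 and 0.13 in 4x, 0.06 and 0.06 in 3x(p), and 0.20 and 0.12 in 3x(m). No test of the difference between these gene sets was made.

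**Figure D4:**
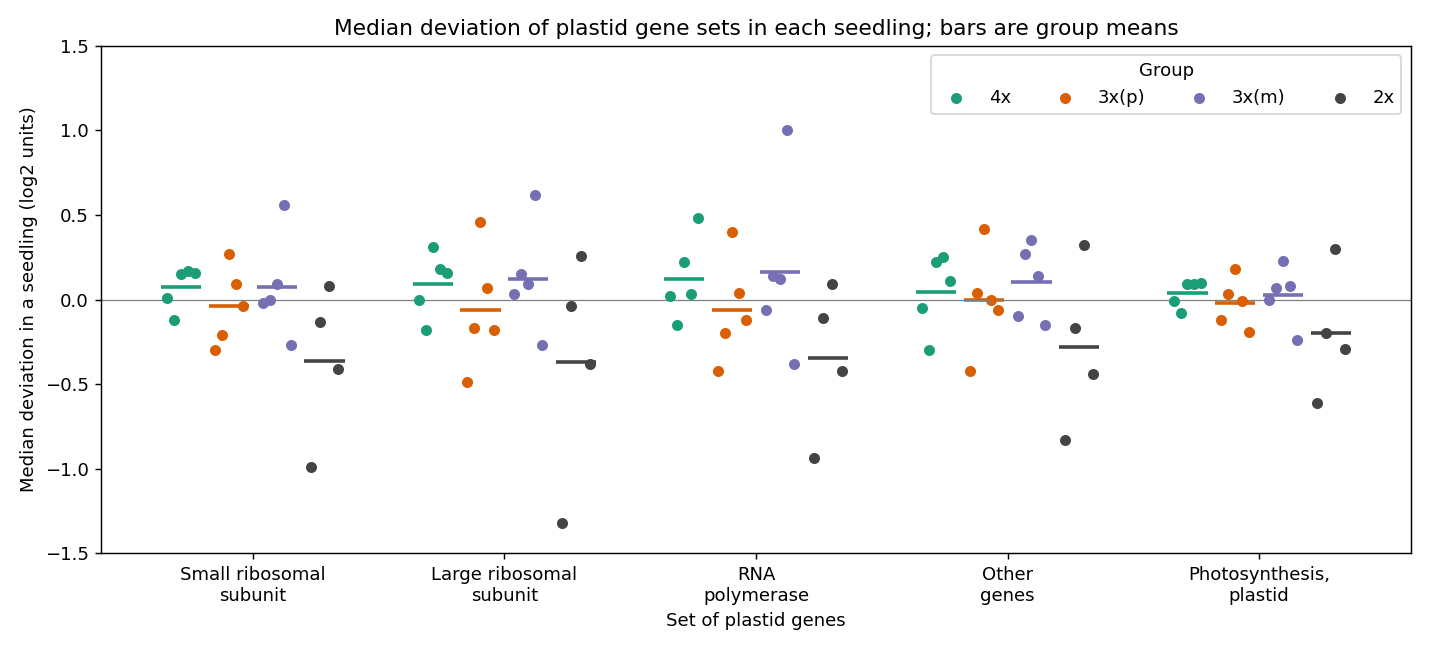
Median deviation in each seedling (y axis, log2 units from each gene's median over 19 seedlings) for 4 classes of the genetic system and for the plastid photosynthesis genes (x axis), coloured by group, with bars at group means. Seedling 2x 1 is lowest in all 5 sets, and 3x(m) 4 reaches 1.00 in the polymerase set and 0.08 in the photosynthesis set.

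The 2 seedlings that stood apart differed in how their deviations were spread over the plastid genome. In 2x 1 the median deviation was -1.01 for the genetic system and -0.61 for the photosynthesis genes. In 3x(m) 4 it was 0.58 for the genetic system and 0.08 for the photosynthesis genes, a gap of 0.50, where the other 18 seedlings had gaps of -0.40 to 0.19. Within the genetic system its polymerase genes stood at 1.00, the ribosomal genes at 0.58 and the other genes at 0.14. Single genes of 3x(m) 4 ranged between -0.27 (ycf4) and 1.72 (rps16), with rpl14 at 1.32, rpoB at 1.22, ycf3 at 1.21, rpoC1 at 1.04 and rpl16 at 1.02. The gene clpP stood at 0.09, rps14 at -0.05 and accD at -0.18.

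Many plastid genes are transcribed in clusters. By gene order alone, the 26 genes fall into 10 stretches that no photosynthesis gene interrupts. Strand and transcription units were not used, so a stretch need not be transcribed as a unit. In 3x(m) 4 the neighbours matK and rps16 had a median of 1.15, and the stretch of rps2, rpoC2, rpoC1 and rpoB had 1.00. The stretch of ycf3 and rps4 had 0.75, and the stretch of rpoA, rpl36, rpl14, rpl16, rps3, rpl22 and rps19 had 0.70. The stretch of rpl33, rps18, rpl20 and clpP had 0.31, rpl32 with ccsA had 0.30 and ycf4 with cemA had 0.04. The single genes were rps15 at 0.57, rps14 at -0.05 and accD at -0.18. In 2x 1 the matK stretch had -1.12, the rpoB stretch -0.94, the ycf3 stretch -1.78, the rpoA stretch -1.11, the rpl33 stretch -0.71 and the ycf4 stretch -0.95, so that ycf4 and cemA, near 0 in 3x(m) 4, were low in 2x 1. There rpl32 with ccsA had -0.54, rps15 -1.30, accD -0.44 and rps14 -0.18. In 4x minus 2x the median differences of the 10 stretches ranged between 0.13 (rps14, a stretch of 1 gene) and 0.76 (ycf3 with rps4). Between them lay rpl32 with ccsA at 0.27, accD at 0.32, the rpl33 and ycf4 stretches at 0.36 each, the rpoA stretch at 0.38, the matK and rpoB stretches at 0.53 each and rps15 at 0.64.

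**Figure D5:**
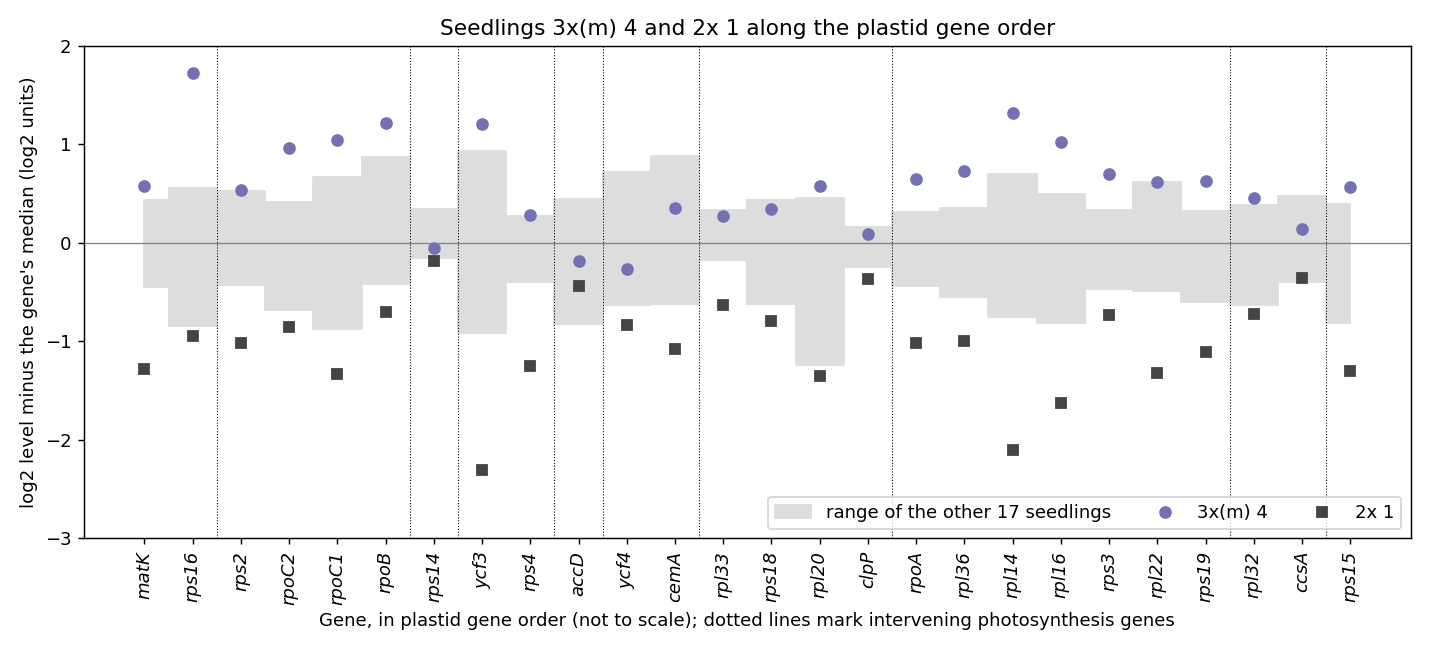
Deviation of the 26 genes from their median (y axis, log2 units) in 3x(m) 4 (circles) and 2x 1 (squares), in plastid gene order (x axis, not to scale), with the range of the other 17 seedlings in grey. In 3x(m) 4 rps16, the polymerase genes and rpl14 lie above the grey range while accD and ycf4 lie within it, and in 2x 1 the squares lie below it for 24 genes.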

How the data were processed

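RNA of 19 single seedlings was extracted with Trizol and a column and labelled with a 3′ IVT kit, per the labels' protocols. Per the submitters' processing notes, the authors deposited log2 values from RMA, which normalizes arrays to each other and gives 1 value per probe set, and its version is not given in the sources used here. The labels give each seedling as a biological replicate. The number of arrays limits the precision. Labelling primed at poly(A) favours messages with long 3′ tails, which plastid transcripts mostly lack, and its part in the levels was not tested.

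Of 22810 probe sets 64 controls were set aside. The platform annotation gave 13513 probe sets 1 gene and 503 several. Gene order and the plastid or nuclear location came from a RefSeq gene table of the TAIR10.1 assembly, in which all 26 genes matched. No coordinates or sequences are printed, since the values name no build.

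The test was limma 3.58.1 (R 4.3.3) over all 22746 probe sets and 19 arrays, with 1 coefficient per group and p-values adjusted by Benjamini-Hochberg over all probe sets. Adjusted p-values without another setting beside them are from this test, and a call is an adjusted p under 0.05. Intervals are 95%. The fit was checked on simulated data. Differences are the first group minus the second on the log2 scale, ± SE.

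The genes, the lists of nuclear partners and the rule for naming were chosen with earlier results of these data known. By that rule a comparison names, with its statistics, the gene of smallest p in each of the ribosome, polymerase and other classes, the highest and lowest difference and any call, and for each nuclear list any call or the gene of smallest p. All 26 may be named with levels. For the stretches and the seedlings that stand apart, genes were named after their values were seen. Replicate numbers were not used as pairs in the test. Figures were drawn with matplotlib 3.10.9.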

Additional observations from a re-analysis of the deposited data

Results flagged for a closer look

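Within each group the highest and lowest seedling of every gene and class was checked against its neighbours by Dixon's criterion at 95%. Of 120 groups of values 8 were met, and chance gives about 1 in 20. In tetraploid 4x 2 a low value stood apart for rps4 (11.69), rpl20 (5.96) and rps15 (5.73). In maternal-excess triploid 3x(m) 4 a high value stood apart for rps16 (8.09), rpl14 (11.72) and rpl22 (12.00). In diploid 2x 3 the dim rps14 was high (3.84), and in diploid 2x 1 rpl36 was low (9.57).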

How the results depend on the processing

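Over the 7 comparisons, 0 of the 26 genes were called with a fit of only the compared groups (the same fit for the polyploids together), 1 probe set per gene, eBayes with trend and robust, without the dimmest 30% of probe sets, a further quantile normalization, arrays centred on their nuclear median, a replicate block, the 7 multi-gene probe sets added, or any seedling left out. With array weights 1 was called in 4x minus 2x and 0 in the other comparisons. Over all probe sets array weights gave 1017 calls in 4x minus 2x and the fit of only the compared groups 451, against 218, and in 3x(p) minus 2x these were 423 and 109, against 262. With the replicate block, which treats same-numbered seedlings of the groups as a block, the median of 3x(m) minus 2x was 0.46. With group means removed, 12 of 27 same-numbered pairs correlated above 0.1. Their median correlation was 0.038, against -0.004 for other pairs of seedlings from different groups. These values cannot tell whether the numbers pair seedlings.

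Leaving out 1 seedling moved the median difference between 0.17 and 0.64 in 4x minus 2x, 0.06 and 0.48 in 3x(p) minus 2x, 0.20 and 0.63 in 3x(m) minus 2x, 0.16 and 0.61 for the polyploids, -0.22 and -0.04 in 3x(p) minus 3x(m), 0.02 and 0.22 in 4x minus 3x(p), and -0.14 and 0.07 in 4x minus 3x(m). With 1 seedling left out, at least once the sign turned for 1 of 26 genes in 4x minus 2x, 6 in 3x(p) minus 2x, 0 in 3x(m) minus 2x, 1 for the polyploids, 13 in 3x(p) minus 3x(m), 10 in 4x minus 3x(p) and 20 in 4x minus 3x(m), none of them called. Among the genes named by the rule 4 turned: rpl36 in 3x(p) minus 2x (-0.18 to 0.19 with 1 seedling left out, below 0 without 2x 1, 3x(p) 3 or 3x(p) 4, and -0.18 without both 2x 1 and 3x(m) 4), accD in 3x(p) minus 3x(m) (-0.05 to 0.21, below 0 without 3x(m) 5), rpl20 in 4x minus 3x(p) (-0.20 to 0.13, above 0 without 3x(p) 3 or 4x 2), and rpoA in 4x minus 3x(m) (-0.17 to 0.10, above 0 without 3x(m) 4, 0.05 with array weights and 0.10 without both). The cause of these turns was not tested. Leaving out both seedlings and adding the multi-gene probe sets were chosen after seeing the data.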
